A study of Mus musculus with 36 samples.

Results

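Forelimbs of mouse embryos lacking the limb enhancer hs1586 were compared with forelimbs of 3 sister knockout lines, lacking hs1262, hs1467 or hs1603, by the H3K27ac peaks called in each library. There were 2 hs1586KO lists among 8 compared lists, which hold 6 sister lists, 2 from each of hs1262KO, hs1467KO and hs1603KO. The series holds 18 peak lists in all. The members were chosen by genotype and by a tag in the list names. Replicate 1 of all 4 lines carries one tag and replicate 2 of all 4 lines the other. What the tag stands for is not stated, and every comparison below was made within a replicate number. All embryos were of strain FVB at embryonic day 11.5, none was treated, and each library was made from pooled forelimbs of embryos described as null for the enhancer. The number of embryos in a pool is not given, and no list of the 2 tags is wild type, so each enhancer deletion was set against forelimbs with another enhancer deleted. The comparison asks what the loss of hs1586 changed in the marked landscape of the limb bud, around the deletion and across the genome. The other 10 lists, 4 of them wild type (Wt), 4 of mm1179KO and 2 of hs72KO, carry other tags and serve only as side information.

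Acetylation of histone H3 at lysine 27 (H3K27ac) marks nucleosomes at active enhancers and promoters, and ChIP-seq with an antibody to it recovers the marked stretches of chromatin. Enhancers are DNA segments that raise transcription of genes that may lie far away on the same chromosome. hs1586 and mm1179 are both known as limb enhancers of Gli3, which encodes a transcription factor of the Hedgehog pathway. In the limb bud GLI3, mostly as a repressor, restrains the response to Sonic hedgehog that patterns the digits from anterior to posterior. Removal of a DNA segment also removes any reads from it, so a homozygous deletion inside a marked region can appear as a gap between peaks.

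Each list gives peaks with a position in mm9 and a score set by the authors' peak caller. That score belongs to the single peak and has no stated scale, so peaks were only ranked by it inside their own list. A percentile below is the share of the peaks of the same list that score no higher. Depth is unknown because the lists hold no read counts, and the absence of a peak shows only that no call was made. No gene was assigned to a region, and the labelled tissue was not checked against marker genes, because the annotation at hand is of another build.

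The longest stretch on chromosome 13 that all 6 sister lists covered and neither hs1586KO list did was chr13:15639001-15642500 (mm9), a run of 7 tiles of 500 bp, or 3.5 kb. It was taken as the position of the deletion, and since these lists chose it, its values are a description without a test. hs1586KO replicate 1 covered 86 bp of it and hs1586KO replicate 2 covered 214 bp. The sister lists covered 3500 bp each, except hs1467KO replicate 2 with 3340 bp. All 10 lists with other tags had peaks there too, covering between 2088 bp in mm1179KO replicate 2 and 3372 bp in mm1179KO replicate 1. In both hs1586KO lists, then, nearly the whole stretch was without a call, and no other list of the series left it uncalled.

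The edges of the gap lay close together in the 2 hs1586KO lists. In replicate 1 a peak of 6097 bp ended at 15639086 and the next peak, of 2532 bp, began at 15642600, which leaves 3513 bp. In replicate 2 a peak of 5611 bp ended at 15639152 and a peak of 2665 bp began at 15642439, which leaves 3286 bp. The second gap lies within the first, so the stretch without a call in either list is also 3286 bp. The peak on the left stood at percentiles 87.3 and 82.5 in replicates 1 and 2 of hs1586KO, and the peak on the right at 55.8 and 59.4. In 5 of the 6 sister lists a single peak ran across the whole stretch. These bridging peaks were 12991 and 14700 bp long in hs1262KO replicates 1 and 2, 10292 bp in hs1467KO replicate 1, and 15657 and 12049 bp in hs1603KO replicates 1 and 2. Their percentiles ran between 75.4 in hs1603KO replicate 2 and 95.2 in hs1262KO replicate 1. The exception, hs1467KO replicate 2, had 3 peaks in the region and none that spanned the stretch.

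**Figure D1:**
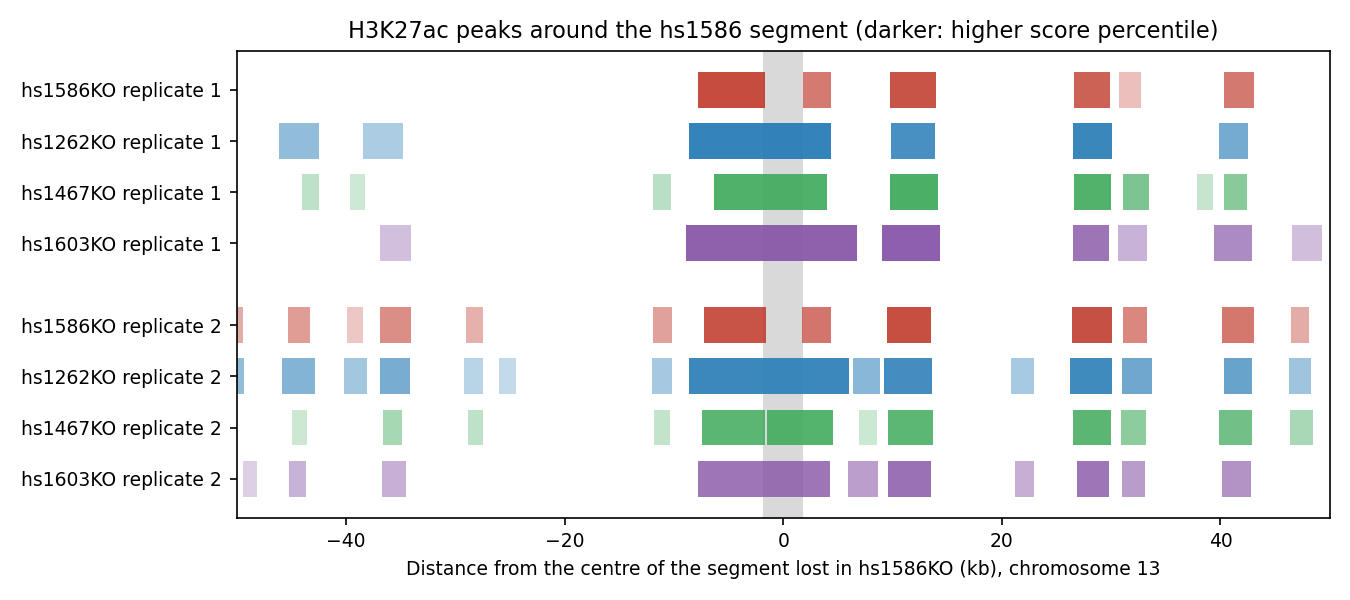
H3K27ac peaks within 50 kb of the centre of the 3.5 kb stretch on chromosome 13, in kb, 1 row per list, with replicate 1 above replicate 2 and hs1586KO at the top of each set; darker bars have a higher score percentile in their list and the grey band is the stretch. Both hs1586KO rows show 2 peaks with a gap over the band, where the 6 sister rows are covered for 3340 to 3500 bp.

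The stretch is part of a wide marked region, chr13:15632103-15649410, 17.3 kb long and called in all 8 lists and in all 4 Wt lists. Within it hs1586KO peaks covered 8629 bp in replicate 1, against 12991, 10292 and 15396 bp in hs1262KO, hs1467KO and hs1603KO. In replicate 2 hs1586KO peaks covered 8276 bp, against 16976, 13421 and 14753 bp in hs1262KO, hs1467KO and hs1603KO. hs1586KO was lowest in both sets, and by more than the length of the gap itself in every pairing but that with hs1467KO replicate 1. To the left of the stretch, hs1586KO replicate 1 covered 6011 bp, against 6881, 4568 and 6898 bp in its sisters. hs1586KO replicate 2 covered 5459 bp there, against 6898, 5715 and 6029 bp. To the right, hs1586KO replicate 1 covered 2532 bp, against 2610, 2224 and 4998 bp, and hs1586KO replicate 2 covered 2603 bp, against 6578, 4366 and 5224 bp. The left and right flanks of hs1586KO thus lay inside the range of the sisters in replicate 1 and below it in replicate 2. Because the gap chose this region, its shorter marked length in the test described further on (-0.71 ± 0.16 SE on the log2 scale) is no independent evidence. The rank of its highest peak differed by -0.22 ± 0.24 SE in normal scores (limma, adjusted p = 0.963). Where a sister list had a bridging peak, that peak gave this rank, while in hs1586KO the peak left of the gap gave it. The gap thus bears on this measure too, and it is no independent evidence either.

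The same search was made for each sister. It keeps only tiles that all 6 lists of the other lines call, so hs1586KO is marked there by the rule, and the values are a description. At the 2 kb stretch of hs1262KO, chr6:7041001-7043000, the one of higher percentile of 2 equally long, hs1586KO covered 1893 and 1962 bp and both hs1262KO lists 0 bp. At the 3.5 kb stretch of hs1467KO, chr11:111688001-111691500, hs1586KO covered 3381 and 3500 bp and both hs1467KO lists 0 bp. At the 4 kb stretch of hs1603KO, chr6:143446501-143450500, hs1586KO covered 4000 bp in each replicate and both hs1603KO lists 0 bp. The mean percentile in the other lines was 38.1 at the hs1262KO stretch, against 89.2 at that of hs1467KO and 92.5 at that of hs1603KO. hs1586KO itself had 6 lost segments as long as the hs1262KO stretch. Whether that stretch is the hs1262 deletion was not tested.

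The other Gli3 limb enhancer of the series, mm1179, was taken to lie 202 kb away, at chr13:15434001-15437000. This 3 kb stretch was without peaks in all 4 mm1179KO lists, and its position was not checked against published coordinates. hs1586KO covered the full 3000 bp of this 3 kb stretch in both replicates. The peak there stood at percentile 94.4 in hs1586KO replicate 1, against 96.9, 93.2 and 91.5 in hs1262KO, hs1467KO and hs1603KO. In replicate 2 it stood at 90.7 in hs1586KO, against 93.3, 88.2 and 89.1 in hs1262KO, hs1467KO and hs1603KO. hs1586KO lay inside the range of its sisters both times. Over the whole marked region, chr13:15431444-15439875, hs1586KO peaks covered 8405 and 8432 bp, above each sister list of the same number, which covered 8335, 8371 and 8253 bp in replicate 1 and 8431, 8228 and 8149 bp in replicate 2. The excess over the nearest sister was small next to the spread among sisters, and the test gave 0.02 ± 0.05 SE on the log2 scale (limma, adjusted p = 1.00). In the rank test the difference was 0.02 ± 0.21 SE (limma, adjusted p = 0.996). A higher mark at the stretch taken as mm1179 in the absence of hs1586 was therefore not detectable by these tests. Peaks of hs1586KO replicate 2 filled all 8432 bp of the region. The edges of a region were set by what peaks of 2 or more compared lists cover, the hs1586KO lists included. The length measure would thus miss a gain beyond the edges in a single list. A gain beyond them shared by both hs1586KO lists would have widened the region and been counted.

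Within 500 kb of the stretch, 47 consensus regions were present, a consensus region being a stretch that peaks of 2 or more of the 8 lists cover. hs1586KO replicate 1 called 23 of them (48.9%), against 25 (53.2%), 32 (68.1%) and 28 (59.6%) in hs1262KO, hs1467KO and hs1603KO. Of all 59338 regions of the genome the same lists called 43.7% in hs1586KO, against 46.4%, 51.3% and 44.8%. hs1586KO replicate 2 called 38 (80.9%), against 46 (97.9%), 40 (85.1%) and 37 (78.7%), and over the genome 88.5%, against 91.2%, 88.4% and 83.9%. hs1586KO was lowest of the 4 lines in replicate 1, in the window as across the genome, and second lowest in the window in replicate 2. Of the 47 regions, 22 were called in both hs1586KO lists, 19 in all 6 sister lists and 17 in all 8 lists, against 42.5%, 33.0% and 30.2% of all regions.

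A single region of the window besides the stretch was called in all 6 sister lists and in neither hs1586KO list. It is chr13:15706245-15708105, 1861 bp wide and 63.7 kb from the stretch, with sister percentiles of 3.85 to 26.1 and a call in 1 of 4 Wt lists. Across the genome 37 of 59338 regions met this rule, or 0.0624%, and 35 regions, or 0.059%, were called in both hs1586KO lists and no sister list, none of them in the window. Another region, chr13:15585514-15588818, was called in all 6 sister lists and in hs1586KO replicate 2 but not in hs1586KO replicate 1. A further 7 regions of the window had no call in either hs1586KO list, and each of them had a call in only 2 or 3 of the 6 sister lists. The calls that all sisters shared and both hs1586KO lists lacked were thus limited in the window to 1 weak region.

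Outside the 3.5 kb stretch, peaks of hs1586KO replicate 1 covered 74.5 kb of the window, against 87.2, 82.4 and 93.1 kb in hs1262KO, hs1467KO and hs1603KO. Peaks of hs1586KO replicate 2 covered 106 kb, against 134, 117 and 103.02 kb. The covered length was 0.877-fold that of the sisters (log2 ratio -0.19), and exchanging the line within replicate numbers gave p = 0.188 (exact permutation, two-sided). The flanks of the marked region that holds the stretch are part of this length. The gap chose that region, so the comparison is not free of that choice. As a share of all the list covers, the window held 0.832 kb per Mb in hs1586KO replicate 1, against 0.932, 0.906 and 1.04 in its sisters, and 0.688 kb per Mb in hs1586KO replicate 2, against 0.805, 0.721 and 0.731. That share was 0.892-fold that of the sisters and lowest of the 4 lines in both sets (exact permutation p = 0.125). With 16 arrangements no p below 0.0625 is possible, so these tests could not reach 0.05. The covered length of hs1586KO was below every sister in replicate 1 and below hs1262KO and hs1467KO but above hs1603KO in replicate 2.

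**Figure D2:**
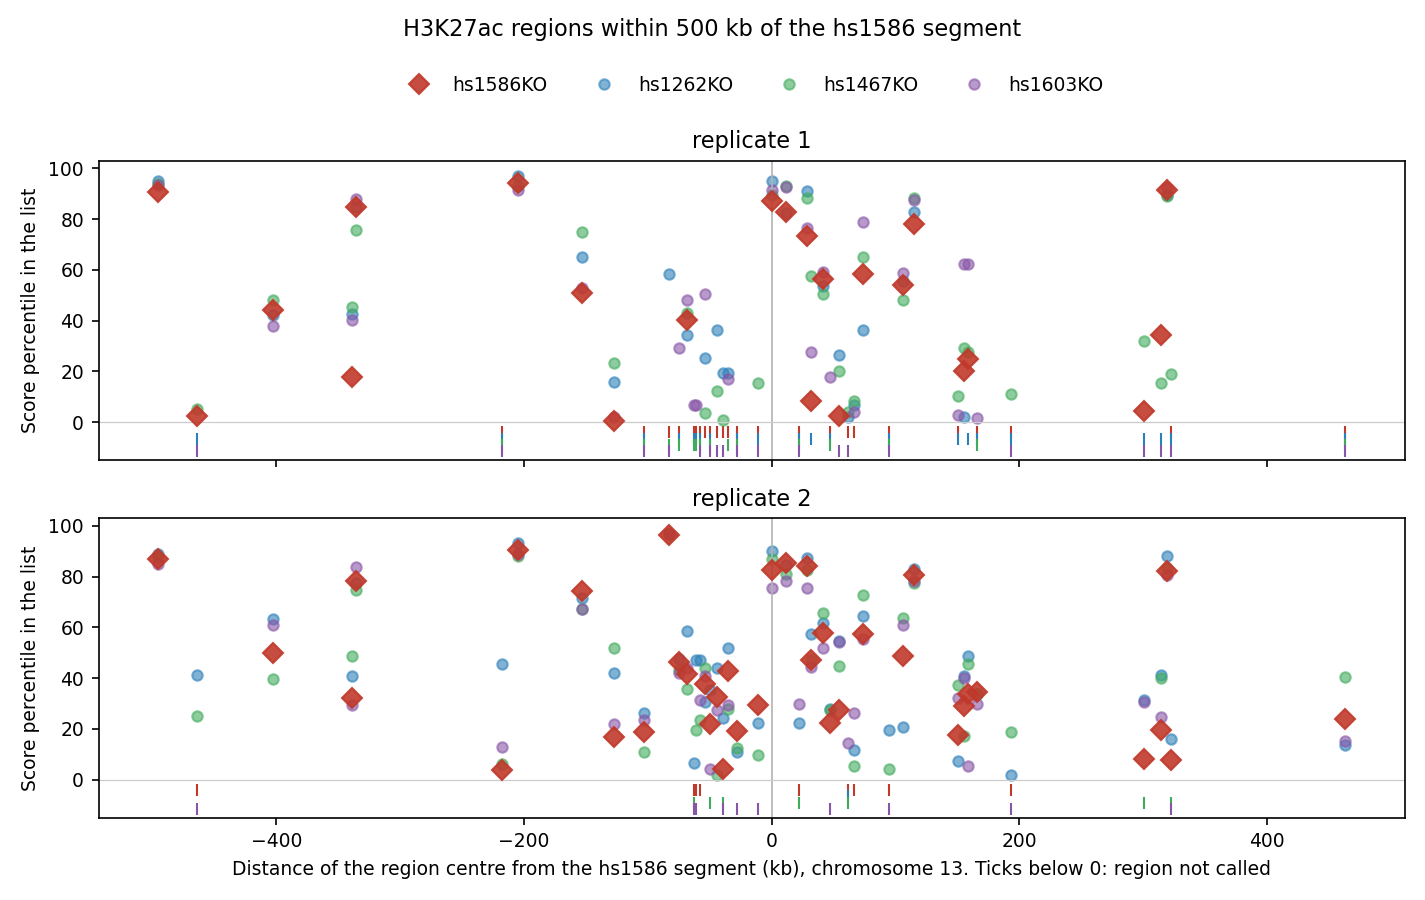
Score percentile of the highest peak in each consensus region within 500 kb, against the distance of the region's centre from the stretch in kb, for replicate 1 (top) and replicate 2 (bottom); diamonds are hs1586KO, circles the sisters, and ticks below 0 mark lists without a call. Regions called in all 4 lists of a set number 17 in replicate 1 and 31 in replicate 2. Diamonds lie below every circle in 7 and 5 of them, and above every circle in 0 and 3. The 7 include the region that holds the stretch. The 17 were called in every compared list. Of all such regions across the genome, 32.2% lay below and 20.3% above in replicate 1. No genome-wide share is given for the 31.

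The strong regions of the window showed no shift in hs1586KO that both replicates shared. The nearest, chr13:15649996-15654908, 7.50 kb to the right, stood at percentile 82.8 in hs1586KO replicate 1, against 82.2, 93.2 and 92.6 in its sisters, and at 85.4 in hs1586KO replicate 2, against 84.6, 81.2 and 78.4. It was within the sisters' range in replicate 1 and above it in replicate 2. The next, chr13:15667127-15670861, stood at 73.4 in hs1586KO replicate 1, against 90.9, 88.4 and 76.4, and at 84.4 in hs1586KO replicate 2, against 87.4, 82.6 and 75.4. It was below all sisters in replicate 1 and among them in replicate 2. The same held for chr13:15752558-15758134, with 77.9 in hs1586KO replicate 1, against 83.0, 88.4 and 87.6, and 80.6 in hs1586KO replicate 2, against 83.1, 77.6 and 78.1. It held likewise for chr13:15143074-15147335, 492 kb to the left, with 90.6 in hs1586KO replicate 1, against 94.9, 93.8 and 93.6, and 86.9 in hs1586KO replicate 2, against 88.9, 87.8 and 84.9. The far region on the right, chr13:15957276-15961815, lay inside the sisters' range in both, at 91.5 and 82.3 in hs1586KO.

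A wide region 76.7 kb to the left, chr13:15552898-15562275, was called in replicate 2 at percentile 96.5 in hs1586KO, against 96.7, 96.9 and 96.9 in hs1262KO, hs1467KO and hs1603KO. In replicate 1 it was not called in hs1586KO, hs1467KO or hs1603KO, and hs1262KO called it at percentile 58.2. All 4 Wt lists called it. Drop-outs of strong regions were common in the replicate 1 lists. Of 5494 regions that all 4 replicate 2 lists called at a mean percentile of at least 90, hs1586KO replicate 1 did not call 2124 (38.7%), hs1262KO replicate 1 did not call 1712 (31.2%), hs1467KO replicate 1 did not call 1814 (33.0%) and hs1603KO replicate 1 did not call 3037 (55.3%). The reverse count was 0 for each of the 4 replicate 2 lists, over 2279 regions that all 4 replicate 1 lists called at a mean percentile of at least 90.

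Among the 17 regions of the window called in all 8 lists, the percentile of hs1586KO was below all sisters in both replicates for 1 region and above them for none, against 8% and 5.01% of all 17912 such regions across the genome. The region that was lower is chr13:15512594-15514566, 124 kb to the left. It stood at 0.610 in hs1586KO replicate 1, against 15.9, 23.2 and 1.85 in its sisters, and at 17.0 in hs1586KO replicate 2, against 42.0, 52.0 and 21.8. It is a weak region, and its rank differed by -0.93 ± 0.38 SE (limma, adjusted p = 0.963). The marked length was below all sisters in both replicates for 1 region, the one that holds the stretch. It was above them for 1 region, the one that holds the stretch taken as mm1179. Across the genome these shares were 3.34% and 5.16%. In replicate 1 alone, 7 of the 17 percentiles lay below every sister and 0 above, against 32.2% and 20.3% of all regions. The 7 include the region that holds the stretch, which the gap chose. In replicate 2, 1 of the same 17 lay below and 2 above, against 26.1% and 26.1% of all regions. In the rank test, without the region of the stretch, 12 of 16 estimates were negative with a median of -0.07. Over all regions 46.9% were negative, with a median of 0.02. With the region of the stretch, which the gap chose, 13 of 17 were negative with a median of -0.08. In the length test, without the region of the stretch, 8 of 16 were negative with a median of -0.03, against 41.7% negative and a median of 0.02 over all regions. limma called 0 of the 17 in either test after adjustment over all regions. Unadjusted p-values were under 0.05 for 2 of 17 in the rank test, chr13:15300443-15302664 (-0.52 ± 0.23 SE) and the region 124 kb to the left, against 4.80% of all regions. In the length test this held for the region of the stretch and for 0 of the other 16, against 2.46% of all regions.

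Across the genome the hs1586KO lists looked like those of the sisters. hs1586KO replicate 1 held 26550 peaks, against 28280, 32472 and 26919 in hs1262KO, hs1467KO and hs1603KO, whose mean was 29224 ± 2894 (SD, n = 3). hs1586KO replicate 2 held 57014 peaks, against 58753, 56475 and 54375, with a sister mean of 56534 ± 2190 (SD, n = 3). hs1586KO had the fewest peaks in replicate 1 and the second most in replicate 2. The ratio over both was 0.959-fold (log2 ratio -0.06, exact permutation p = 0.5). Peaks of replicate 2 outnumbered those of replicate 1 in all 4 lines, a difference between sets that is far larger than any between lines.

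The peaks covered 89.6 Mb in hs1586KO replicate 1, against 93.6, 90.9 and 89.6 Mb in hs1262KO, hs1467KO and hs1603KO. They covered 154 Mb in hs1586KO replicate 2, against 166, 162 and 141 Mb. The log2 ratio was -0.03 (exact permutation p = 0.813). Mean peak width was 3374 bp in hs1586KO replicate 1, against 3310.3, 2801 and 3329.6 bp, and 2695 bp in hs1586KO replicate 2, against 2826, 2872 and 2592 bp (log2 ratio 0.04, exact permutation p = 0.688). Peaks of hs1586KO were widest of the set in replicate 1 and second narrowest in replicate 2, so the sets went opposite ways. Peaks with a score of at least 100 made up 48.4% of hs1586KO replicate 1, against 51.7%, 53.2% and 52.2%, and 69.7% of hs1586KO replicate 2, against 68.4%, 67.8% and 67.5%.

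Each list was also scored on the regions that the other 3 lists of its set had called. hs1586KO replicate 1 called 90.9% of them, against 93.1%, 95.4% and 90.1% for hs1262KO, hs1467KO and hs1603KO. hs1586KO replicate 2 called 95.9%, against 97.3%, 96.0% and 93.5%. The mean difference was -0.826 percentage points (exact permutation p = 0.625, where 0.0625 was again the smallest possible), with hs1586KO above hs1603KO and below the other two in each set. In each of the 4 measures and both sets, hs1586KO lay within 1 SD of the mean of its 3 sisters.

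**Figure D3:**
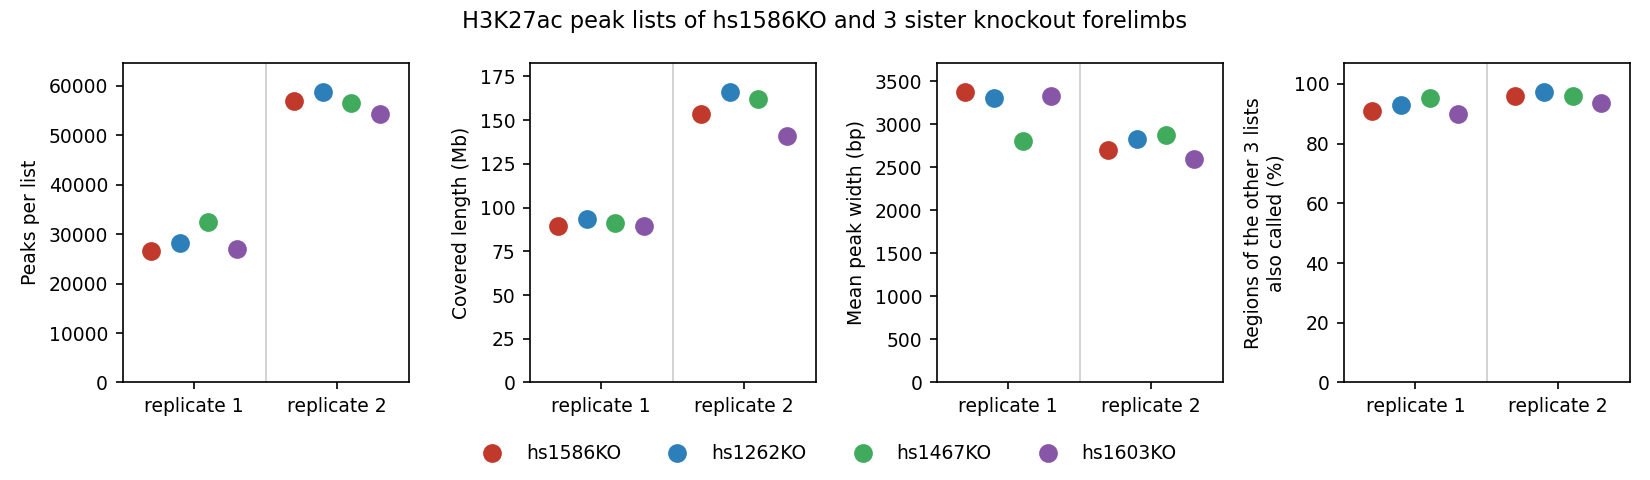
Peaks per list, covered length in Mb, mean peak width in bp and the percentage of the regions of the other 3 lists that a list also called, 1 point per list, by replicate number. The hs1586KO points lie among the sisters or just beside them within each set, at 26550 and 57014 peaks, while the 2 sets differ widely.

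Few of the regions that all 3 sisters of a set called and hs1586KO did not were the same in both sets. Replicate 1 failed to call 1829 of 20085 regions that its 3 sisters called (9.11%), and replicate 2 failed to call 1812 of 43802 (4.14%). Both sets shared 37 of these, 2.02% of the replicate 1 losses and 2.04% of the replicate 2 losses. A shared loss needs a call in all 6 sister lists, so these shares do not measure how far the 2 hs1586KO lists agreed. Of the 25957 regions called in hs1586KO replicate 1, 25192 were called in both hs1586KO lists. The corresponding count of regions uncalled in both lists of a line and called in the other 6 was 27 for hs1262KO, 25 for hs1467KO and 42 for hs1603KO. The number of shared losses in hs1586KO was inside the range of the sisters. Fisher's exact test of calls, 2 lists against 6, cannot go below an unadjusted p of 0.0357, so no call was possible after adjustment over 59338 regions. The 72 regions called by one side only had that p.

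The 37 regions missing in hs1586KO were weak and narrow in the sisters. Their mean sister percentiles ran between 8.11 and 36.7 with a median of 23.4, against a median percentile of 65.7 for the regions called in all 8 lists. Their widths ran between 1631 and 4650 bp with a median of 2266 bp, against 3327.5 bp. The regions missing in each sister line were much alike. Their median percentiles were 21.9, 22.2 and 26.3 in the lists that called them, for hs1262KO, hs1467KO and hs1603KO. Their median widths were 2253, 2336 and 2452 bp in the same order, so weak and narrow missing regions were not particular to hs1586KO. At least 1 Wt list called 30 of them, none was called in all 4, and 7 were called in no Wt list. The highest was chr5:58146726-58149388, at percentiles 28.8, 46.5 and 20.1 in replicate 1 of hs1262KO, hs1467KO and hs1603KO and at 34.0, 42.7 and 48.3 in their replicate 2. Next came chr8:8307153-8309944, at a mean sister percentile of 35.6, and chr5:136933428-136935803 at 34.2. They were followed by chr2:6282403-6284959 at 33.7 and chr15:35346420-35349238 at 32.3. Wt lists called these 5 regions in 2, 3, 1, 3 and 2 of 4 cases, in that order.

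Of the 35 regions called only in hs1586KO, 14 stood free. The other 21 belonged to a hs1586KO peak, in either replicate, that touches a peak of any sister list elsewhere. These 21 are called edges here. The 35 regions were 7 to 2122 bp wide, and 23 were at least 500 bp wide. No Wt list called 31 of the 35. The 5 with the highest percentile were all edges of at most 218 bp, among them chr4:106454904-106455047, 144 bp, at 88.4 and 96.5 in the hs1586KO replicates. The others were chr8:110049712-110049718, 7 bp, chr8:110210852-110210998, 147 bp, chr18:17547125-17547178, 54 bp, and chr9:41597794-41598011, 218 bp. The 14 free-standing regions had mean hs1586KO percentiles of 3.34 to 22.6, the highest being chr15:66726837-66728678 at 3.48 in replicate 1 and 41.7 in replicate 2. Regions present in hs1586KO alone were therefore edges beside a sister peak, up to 1393 bp wide, or weak peaks. Their median percentile was 17.0, against 18.9, 13.3 and 16.9 for the regions called in hs1262KO, hs1467KO or hs1603KO alone.

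Tiles of 500 bp were also compared, each counted as called where peaks covered at least 250 bp. hs1586KO had 267 lost segments, called in all 6 sister lists and in neither of its own, and 380 gained segments, the opposite. hs1262KO had 120 lost and 630 gained segments, hs1467KO 353 and 476, and hs1603KO 396 and 297. hs1586KO stood between the sisters in both counts. Of its lost segments 214 were a single tile, 20 had 2 tiles, 26 had 3 and 6 had 4. The stretch on chromosome 13, with 7 tiles and a mean sister percentile of 88.1, was the longest by 1.5 kb. It was also the segment with the highest percentile among those of at least 4 tiles, the next being chr12:55550501-55552500 at 41.5 and chr8:8307501-8309500 at 35.6, each 2 kb and called in 2 of 4 Wt lists. The stretch on chromosome 13 was chosen for its length, so its place among the lost segments is a description.

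**Figure D4:**
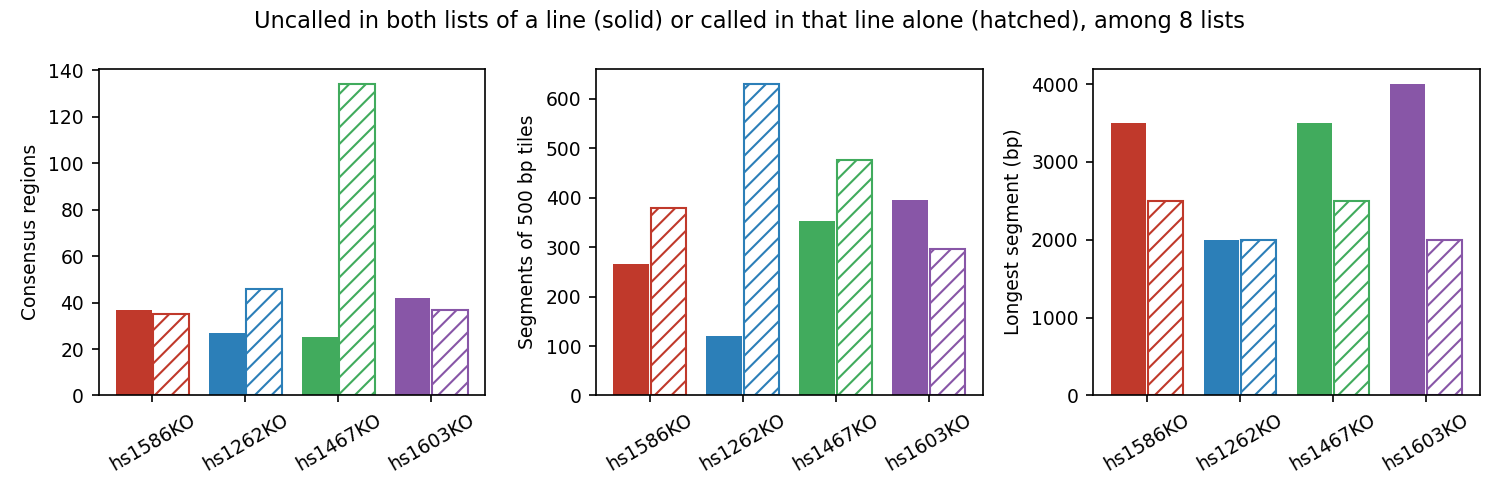
Consensus regions, segments of 500 bp tiles and the length of the longest segment in bp, for hs1586KO and each sister; solid bars are uncalled in both lists of the line and called in the other 6, hatched bars called in the line alone. hs1586KO has 37 and 35 regions and 267 and 380 segments, inside the range of the sisters except for its 35 regions called alone, against 37 to 134 in the sisters.

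The longest gained segment of hs1586KO was chr9:41596501-41599000, 2.5 kb, at a mean hs1586KO percentile of 70.2. None of the 10 lists with other tags called it. hs1586KO replicate 1 had a weak peak at 41596287-41598011 (percentile 8.35) followed by a strong one at 41598083-41602763 (71.7). hs1586KO replicate 2 had the same arrangement, 41596120-41597727 (20.1) followed by 41597794-41602904 (68.7). All 6 sister lists called the strong peak at percentiles of 45.6 to 59.0, but with left edges between 41599109 and 41599551. The left edge of the strong peak thus lay at least 1026 bp farther out in hs1586KO than in any sister, with an extra weak peak beyond it. In the lists with other tags the peak was narrower still, beginning at 41599693 or later, and mm1179KO replicates 1 and 2 and Wt replicate 1 had no peak there. The next gained segments, chr14:76374501-76376500 (percentile 14.6) and chr3:135361501-135363500 (13.7), were 2 kb each and weak.

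**Figure D5:**
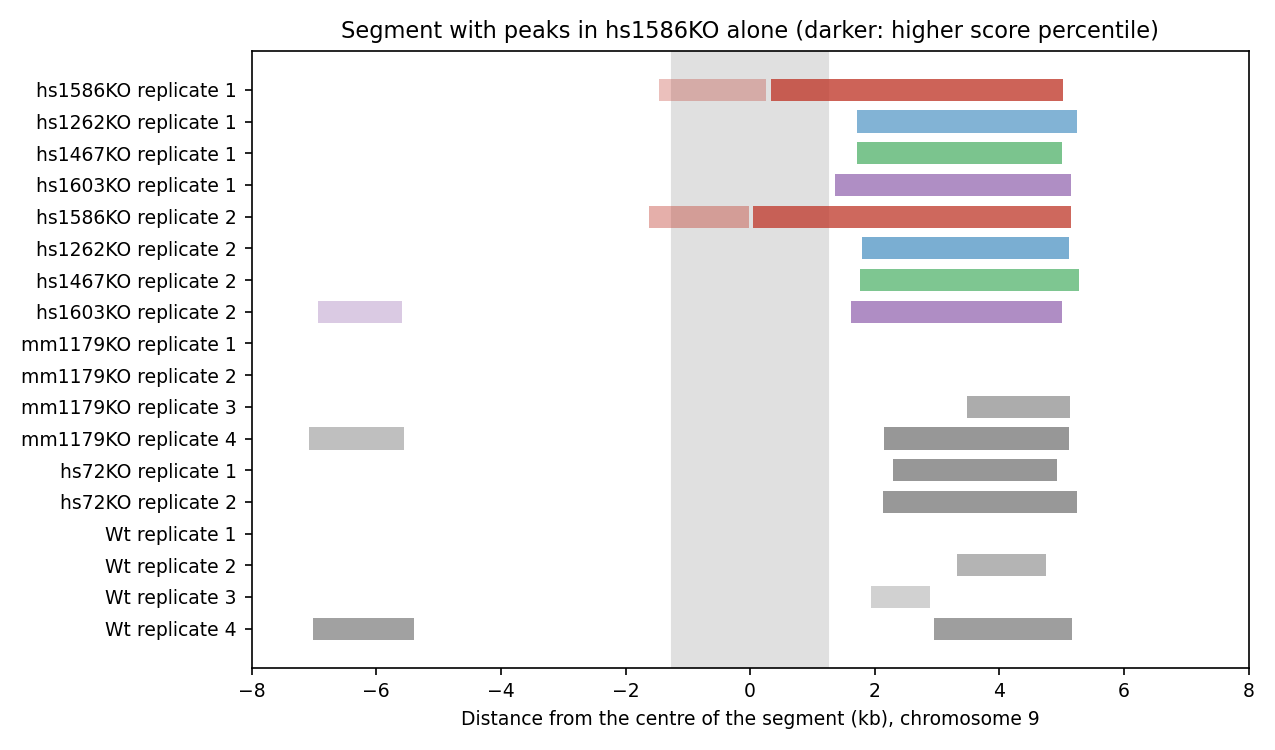
H3K27ac peaks around the longest segment called in hs1586KO alone, by distance from its centre in kb on chromosome 9, 1 row per list; darker bars have a higher score percentile and the grey band is the 2.5 kb segment. Peaks enter the band in both hs1586KO rows, while the strong peak of the sisters begins to its right.

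Shifts in rank were tested over the 17912 regions called in all 8 lists, 30.2% of the 59338, with limma on normal scores of the rank within each list and the replicate number as a block. A normal score counts in SDs of a normal distribution over the regions of a list. No region was called at an adjusted p under 0.05, so 0% was called in either direction. The smallest adjusted p was 0.323, and 860 regions (4.80%) had an unadjusted p under 0.05. The same test of each sister against the other 3 lines also called 0 regions for hs1262KO, hs1467KO and hs1603KO. On simulated data with 100 shifts of each size planted together, the test found 77% of shifts of 2 normal scores and 12% of shifts of 1. Small shifts would thus mostly be missed. The adjustment is stricter where few regions differ, so a lone shift of either size would be found less often than these shares.

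The 3 regions with the smallest p were all lower in rank in hs1586KO. At chr4:32655648-32659436 hs1586KO stood at percentiles 9.93 and 29.6, against 46.3 to 58.5 in replicate 1 and 53.6 to 60.5 in replicate 2 of the sisters (-1.32 ± 0.18 SE, limma adjusted p = 0.323). At chr13:96448255-96450870 it stood at 4.87 and 26.1, against 44.4 to 46.8 and 52.5 to 55.6 (-1.36 ± 0.19 SE). At chr1:94332920-94335710 it stood at 0.710 and 28.6, against 43.9 to 65.2 and 54.7 to 66.9 (-2.0 ± 0.27 SE, and -1.14 without replicate 1). These are regions of middle rank in the sisters, called in at least 3 Wt lists, that stood among the lowest peaks of hs1586KO replicate 1 and low in the list of replicate 2. The other 7 of the 10 lower regions chosen by p had shifts of -1.45 to -1.09 at an adjusted p of 0.963.

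Among the 10 regions with the smallest p in the higher direction, shifts ran between 0.81 and 1.94 and every adjusted p was 0.963. At chr4:105818036-105820917 hs1586KO stood at 84.4 and 53.9, against 0.598 to 30.1 in replicate 1 and 20.7 to 35.5 in replicate 2 of the sisters (1.94 ± 0.50 SE). At chr12:106009863-106012243 it stood at 86.3 and 55.9, against 32.4 to 54.8 and 36.1 to 47.0 (1.12 ± 0.26 SE). At chr3:5346615-5353063 it stood at 98.6 and 99.8, against 95.3 to 96.6 and 91.5 to 96.7 (0.91 ± 0.22 SE). The size of these differences rested on single sets or on how regions were built. At the first of them it was 0.91 without replicate 1 and 0.25 when a region needed 4 lists, at the second 0.46 and 0.28, and at the third 0.54 without replicate 2. Regions higher in hs1586KO thus included both strong and middling ones, and none passed the test. The hs1586KO values of all 20 regions lay outside the sister values of both sets, which the choice by p favours.

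Marked length, the bp covered by peaks inside a region, was tested in the same way on log2 values. No region was called here either, 0% in each direction, with a smallest adjusted p of 0.776 and 441 regions (2.46%) at an unadjusted p under 0.05. The same test called 0 regions for hs1262KO and hs1467KO and 1 for hs1603KO, chr3:51989153-51992453, shorter in hs1603KO (-0.72 ± 0.05 SE, limma adjusted p = 0.0341). On simulated data planted in the same way, this test found 82% of log2 changes of 1 and 96% of changes of 2. A lone change would again be found less often.

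The largest of the named differences in length was at chr12:55547936-55553112, which holds one of the 2 kb lost segments. hs1586KO peaks covered 2225 and 1501 bp of it, against 4353, 3508 and 4137 bp in replicate 1 and 4283, 3447 and 4972 bp in replicate 2 of the sisters (-1.16 ± 0.19 SE, limma adjusted p = 0.981). This value depended on how regions were built and turned to 0.02 when a region needed 4 lists. At chr11:31645890-31649350 hs1586KO covered 1939 and 1645 bp, against 3461, 2718 and 3025 bp and 3432, 2979 and 3081 bp (-0.80 ± 0.11 SE, limma adjusted p = 0.981). When a region needed 4 lists, this difference was unchanged in size and passed the test (limma, adjusted p = 0.0466). The smallest p in this direction was at chr17:7015924-7019669, with 2620 and 2355 bp in hs1586KO, against 3389 to 3686 bp and 3213 to 3416 bp (-0.47 ± 0.06 SE, limma adjusted p = 0.776).

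In the other direction the smallest p was at chr5:44975269-44981090, with 5822 and 5746 bp in hs1586KO, against 4216 to 4472 bp in replicate 1 and 4261 to 4323 bp in replicate 2 of the sisters (0.43 ± 0.05 SE, limma adjusted p = 0.776). At chr5:74826890-74834286 hs1586KO covered 7397 bp in both replicates, the full region, against 4649 to 5578 bp and 4428 to 5367 bp (0.60 ± 0.10 SE, limma adjusted p = 0.981). The strong chromosome 9 peak beside the gained segment, chr9:41598083-41602999, covered 4681 and 4822 bp in hs1586KO, against 3285 to 3790 bp and 3310 to 3485 bp (0.46 ± 0.07 SE, limma adjusted p = 0.981). In each of these 3 regions both hs1586KO lists covered more than every sister list, and none passed the adjustment over 17912 regions. Regions that need 4 lists leave out what the 2 hs1586KO lists alone cover, and there the differences were 0.04, 0.20 and 0.03 in the same order. By the order of p the region of the chromosome 13 stretch was 29th in the length test (unadjusted p = 0.00301, limma adjusted p = 1.00), so a 3.5 kb gap inside a 17.3 kb region did not pass it either.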

How the data were processed

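H3K27ac ChIP-seq peak lists of 8 libraries, 1 list per library, were compared, and 10 further lists gave side values. The labels gave each list its group and number. Each list deposited by the authors holds a position and a score per peak, ranging over 40 to 3233.06, and the scale of the score is not stated. The submitters' processing notes name mm9 as the build, MACS 1.4.2, Bowtie 0.12.8, cutadapt 1.1, bcl2fastq 2.17 and CASAVA. The inputs were not used here. Deeper libraries can give more and wider peaks, and depth is unknown.

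A consensus region counted as called in a list from 1 bp of overlap with a peak. Values of lists were compared by exact two-sided permutation within replicate numbers, regions by Fisher's exact test and by limma 3.58.1 (R 4.3.3) with Benjamini-Hochberg adjustment over all regions, and the replicate number as a block. The number pairs the lists through their shared tag. Deviations of same-numbered lists correlated at 0.341 to 0.427 in all 6 pairs of lines, and the share of called regions in common (Jaccard index) was 0.663 to 0.850 within a number and 0.473 to 0.531 within a line. Nothing says that the lists of a line came from separate pools of embryos, so p-values measure only the spread between libraries, which may be technical.

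Named were the stretch and the regions of its window that matter, the 5 missing and 5 added regions of highest percentile, the 3 lost and 3 gained segments with most tiles, and the regions of smallest p, 10 per direction by rank and 5 by length. Of those chosen by p, the few that matter are printed in full and the others as ranges. The members, rules and lists were chosen with earlier results of these data known. The alternatives were a minimum score of 100, equal lists of the 26550 highest peaks, autosomes, regions of at least 4 lists, 50% of a region covered, tiles of 1000 bp, whole-list percentiles, no replicate block and leaving out lists. The limma tests were tested on simulated data, with 100 shifts of each size planted among the 17912 regions. The other software was matplotlib 3.10.9, scipy 1.17.1, pandas 2.3.3, numpy 2.4.6 and Python 3.11.15. Positions count from 1, and no mm9 sequence or annotation was used.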

Additional observations from a re-analysis of the deposited data

How the results depend on the processing

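Of 136 alternative values of the comparisons, 97 stayed on the same side of 0.05 with the same sign, or within 1.5 times the count. Another 33 counts moved, and 6 ratios or retention differences changed sign. The permutation tests could not reach 0.05 in any alternative that kept the replicate block, so their p-values say nothing about stability. With a minimum score of 100 there were 9 regions missing and 11 only in hs1586KO, 117 lost and 185 gained segments, and 1 call by length. With equal lists the numbers were 19 and 23 regions and 106 lost segments, and the covered length turned to a log2 ratio of 0.0199 and the retention to 0.682 percentage points. Tiles of 1000 bp gave 151 lost and 220 gained segments. Regions of at least 4 lists gave 1 call by rank and 2 by length, and the length difference turned to 0.0218 at chr12:55547936-55553112 and to -0.00218 at chr14:23696675-23699451. Among regions at least 500 bp wide, an alternative chosen after seeing the data, 23 were called only in hs1586KO. The alternatives of the window length were also chosen after seeing the data.

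With lists left out, ranges were -0.134 (without replicate 2) to 0.0129 (without replicate 1) for the log2 ratio of peaks, -0.0619 to -0.00272 for covered length, -0.0347 (without replicate 1) to 0.105 (without replicate 2) for mean width, -2.24 to 0.286 percentage points for retention and -0.236 to -0.142 for window length. Mean width was -0.00567 without hs1467KO replicate 1. By construction, counts can only rise when fewer lists must match: 40 to 1829 regions missing, 36 to 1233 only in hs1586KO, 319 to 8028 lost and 442 to 8933 gained segments, highest without a whole replicate number. Missing regions numbered 107 without hs1262KO replicate 1, 70 without hs1467KO replicate 1 and 74 without hs1603KO replicate 1. Regions only in hs1586KO numbered 67 without hs1262KO replicate 2 and 71 without hs1467KO replicate 2. Lost segments numbered 467 without hs1262KO replicate 1, 592 without hs1467KO replicate 1, and 446 and 439 without hs1603KO replicates 1 and 2. Gained segments numbered 687 without hs1262KO replicate 2, 648 without hs1467KO replicate 2 and 571 without hs1603KO replicate 1. Calls by rank and by length stayed at 0. Without the replicate block the ratio of peaks was -0.0605 (exact permutation p = 0.714) and limma made 0 calls in both tests, so the block changed no call. The cause of these moves was not tested.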

Other observations

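Some regions passed the limma tests only when regions or peaks were selected otherwise, and they are given here as values. At chr18:38732404-38739522 hs1586KO peaks covered 2894 and 4413 bp, against 6849, 5192 and 6927 bp in replicate 1 and 6607, 6559 and 6631 bp in replicate 2 of hs1262KO, hs1467KO and hs1603KO. Both hs1586KO lists were below every sister list. The difference was -0.85 on the log2 scale (limma, adjusted p = 0.981), and -0.52 with an adjusted p of 0.0466 for its part chr18:38735255-38739409, built from at least 4 lists. At chr1:154557281-154563277 peaks that score at least 100 gave a length difference of -0.97 (limma, adjusted p = 0.000801). With all peaks that difference was -0.11 (limma, adjusted p = 1.00), at 5157 and 5594 bp in hs1586KO against 5637 to 5941 bp in the sisters. At chr5:107645399-107647348, built from at least 4 lists, the rank differed by 2.61 (limma, adjusted p = 0.0189), while the wider region that holds it, chr5:107645326-107654136, differed by 0.07 (limma, adjusted p = 0.981).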
